A study of Mus musculus with 12 samples.

Results

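The mevalonate and squalene enzymes were taken as the genes listed by symbol as acting between the condensation of acetyl-CoA and squalene epoxide: Hmgcs1, Mvk, Pmvk, Mvd, Idi1, Fdps, Fdft1 and Sqle. Of these 8 genes, 7 were matched by symbol among the 14398 genes of the count table, and Hmgcs1 was not analysed here. All 7 were among the 14266 genes that passed the filter on low counts. They were read in adipocyte precursor cells, from which new fat cells form. Male C57Bl6/J mice aged 6 to 8 weeks gave the cells, from perigonadal fat (a visceral depot, VWAT) or from inguinal fat (a subcutaneous depot, SWAT). A flow cytometry sort took cells that lacked CD45 and CD31 and carried CD29, CD34 and Sca1, whether or not they carried CD24. The 4 groups were VWAT_SD, VWAT_HFD, SWAT_SD and SWAT_HFD, with 3 libraries each and 12 in all, where SD is a standard diet (Harlan 2018S, labelled day 0) and HFD is a high-fat diet of 60% lard (Research Diets D12492, labelled day 3). The labels name no introduced allele or drug in any group. Each library pooled the tissue of 3 mice, and the labels do not say whether a pool of one depot came from the mice of a pool of the other, so the p-values measure the spread between pools. The SD libraries are labelled day 0 and the HFD libraries day 3, so day and diet cannot be told apart.

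In this pathway, acetyl-CoA is built up to mevalonate, which mevalonate kinase (Mvk) and phosphomevalonate kinase (Pmvk) phosphorylate in turn. Mevalonate diphosphate decarboxylase (Mvd) then makes isopentenyl diphosphate, the isoprene unit, and the isomerase Idi1 turns it into its reactive isomer. Farnesyl diphosphate synthase (Fdps) joins these units into farnesyl diphosphate, where branches lead to ubiquinone, dolichol and prenylated proteins. Squalene synthase (Fdft1) commits farnesyl diphosphate to sterols, and squalene epoxidase (Sqle) carries out the first oxygen-requiring step towards cholesterol. The transcription factor SREBP2, encoded by Srebf2, is known to drive these genes when sterols in the endoplasmic reticulum are low, together with factors such as NF-Y, which binds CCAAT boxes.

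The bases upstream of the start sites are shown because the genes of this pathway are known to be controlled together. Promoters from RefSeq (build GRCm38.p6) were matched by symbol for 4 of the 7 genes, Mvk, Pmvk, Mvd and Idi1, in 5 windows, since Pmvk has 2. The 250 bases before each start were searched on both strands for CCAAT, for GGGCGG, for CACGTG and for TCACNCCAC, a core of the sterol response element. A CCAAT match can share letters with a TCACNCCAC match. The upstream stretches that no exon overlaps are printed for 3 genes, 5′ to 3′ on the gene's strand, with CCAAT and its reverse complement ATTGG in capitals. The stretches lie at chr5:114444061-114444268 (plus strand) for Mvk, chr3:89454291-89454540 (plus strand) for Pmvk and chr8:122443423-122443672 (minus strand) for Mvd.
Mvk: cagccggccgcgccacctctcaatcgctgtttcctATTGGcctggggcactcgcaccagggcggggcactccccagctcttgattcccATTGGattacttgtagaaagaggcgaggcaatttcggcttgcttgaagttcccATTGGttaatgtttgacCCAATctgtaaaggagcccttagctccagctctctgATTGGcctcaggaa
Pmvk: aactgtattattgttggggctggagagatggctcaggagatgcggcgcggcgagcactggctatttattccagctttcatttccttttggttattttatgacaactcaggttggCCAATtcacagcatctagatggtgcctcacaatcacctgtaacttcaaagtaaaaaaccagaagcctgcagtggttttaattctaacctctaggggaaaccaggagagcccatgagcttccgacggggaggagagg
Mvd: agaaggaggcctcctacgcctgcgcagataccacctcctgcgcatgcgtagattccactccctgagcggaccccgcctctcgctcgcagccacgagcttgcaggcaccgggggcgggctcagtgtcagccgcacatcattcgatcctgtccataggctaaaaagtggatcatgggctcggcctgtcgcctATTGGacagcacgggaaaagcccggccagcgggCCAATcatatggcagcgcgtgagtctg
CCAAT was found in 4 of the 5 windows, against 33.8% of all 32851 promoter windows of that length. Mvk held 5 matches, Mvd 2, Idi1 2 and the first Pmvk window 1. Of the windows of enzymes that act after squalene, 9 of 11 held CCAAT, and of those of the isoprenoid branches 5 of 13. GGGCGG was found in 3 of the 5 windows, against 32.7% of all. Neither TCACNCCAC (1.05% of all windows) nor CACGTG (6.02%) was found in these 5 windows. A match is a description of the letters and not a measured binding site.

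The libraries held 17630284 to 56094076 gene counts, and the 7 enzymes together took 1470 to 11741 of them, so that the lowest count of any of them in a library was 94, for Pmvk in SWAT_HFD replicate 1. All levels are CPM (read counts scaled to a common library total) adjusted by TMM, which adjusts for differences in RNA composition. The 6 precursor and gate markers summed to 3450 to 4130 CPM (here over all gene counts, before TMM) across the 4 groups, against 6.91 to 30.1 for 8 leukocyte markers, 1.83 to 6.97 for 4 mesothelial markers and 1.08 to 4.81 for 4 adipocyte markers. Of 198 to 304 CPM for 6 endothelial markers, Tek alone gave 176 to 293. The other 5 summed to 12.7 to 27.9 in VWAT_SD, 5.22 to 36.2 in VWAT_HFD, 4.73 to 12.0 in SWAT_SD and 10.7 to 23.2 in SWAT_HFD, and all 6 had positive log2 differences with diet in SWAT (median 1.00), none of which passed. Mural markers (6 genes) were at 42.1 to 54.0 in VWAT_SD and 24.8 to 30.1 in VWAT_HFD, and at 85.8 to 103 in SWAT_SD and 47.4 to 69.6 in SWAT_HFD. The list did not move as one: in VWAT Myh11 and Abcc9 fell (log2 change -1.42 and -0.80) and Cspg4 rose (0.77), and in each depot 3 of the 6 were positive and 3 negative. Leukocyte markers were at 12.1 to 22.7 in VWAT_SD and 6.91 to 10.5 in VWAT_HFD, and at 9.85 to 10.7 in SWAT_SD and 7.71 to 30.1 in SWAT_HFD. The highest SWAT_HFD value of the leukocyte markers was in replicate 2, which also held 224 of the counts of Ptprc (CD45) against 3 and 24 in the other SWAT_HFD libraries. Cd52 was at 0 in SWAT_HFD replicate 1, and Msln in that library and in SWAT_SD replicates 1 and 3. The part of these cell types in the results was not tested.

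In visceral precursors, 3 days of HFD went with higher levels of the enzymes at every step measured. Of the 7 enzymes, 6 rose and none fell at an adjusted p under 0.05 (edgeR quasi-likelihood test, Benjamini-Hochberg over all 14266 genes), against 8.64% of all genes that rose and 6.98% that fell. The increase was 1.69-fold to 1.95-fold at Pmvk and Mvd, and 2.28-fold to 3.60-fold at the 4 later steps. Mvk was 1.41-fold higher and did not pass. In all 7 the HFD libraries lay above the SD libraries without overlap, as in 15.5% of all genes. The median log2 change of the 7 was 1.19, against -0.02 over all genes tested. In bulk libraries, fewer cells of a type and less RNA per cell cannot be told apart, and the same holds for an increase.

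Among the 3 enzymes that turn mevalonate into isopentenyl diphosphate, Mvk stood at 12.0, 14.3 and 16.4 CPM in VWAT_SD replicates 1 to 3 and at 21.9, 20.99 and 17.4 CPM in VWAT_HFD replicates 1 to 3. The groups did not overlap, but replicate 3 on SD and replicate 3 on HFD lay close together. The log2 difference was 0.50 (SE 0.161, edgeR adjusted p = 0.053). Mvk passed in 7 of 20 alternatives and did not in the other 13, where the adjusted p reached 0.176. It passed with DESeq2's test (adjusted p = 0.0254), with limma voom (0.0393), with DESeq2 size factors (0.0494) and with the replicate block. It also passed without VWAT_HFD replicate 3 (0.0191), SWAT_SD replicate 1 (0.043) or SWAT_SD replicate 3 (0.0325). Mmab, a gene of vitamin B12 metabolism, starts at the far end of the 208 bases printed for Mvk, on the other strand, and was chosen for that position. Its level was 6.82 to 8.47 CPM on SD in VWAT against 7.61 to 8.35 CPM on HFD, and its log2 difference was 0.09 (adjusted p = 0.624).

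Pmvk, the next kinase, was at 4.76, 4.82 and 5.45 CPM in VWAT_SD and at 9.33, 8.53 and 7.49 CPM in VWAT_HFD. Every HFD library was above every SD library, and the SD libraries lay close together (SD 0.378). Pmvk rose 1.69-fold (log2 change 0.75, SE 0.141, edgeR adjusted p = 0.0043). Mvd, the decarboxylase, was at 4.59, 5.86 and 6.48 CPM in VWAT_SD and at 12.7, 12.0 and 8.22 CPM in VWAT_HFD. VWAT_HFD replicate 3 was the lowest on HFD, though still above the SD libraries. Mvd rose 1.95-fold (log2 change 0.97, SE 0.185, edgeR adjusted p = 0.0049).

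At the isomerase step, Idi1 was at 2.64, 4.23 and 5.57 CPM in VWAT_SD and at 19.1, 15.9 and 9.55 CPM in VWAT_HFD. The groups were apart, and libraries varied widely within each. Idi1 rose 3.60-fold, the largest fold of the 7 (log2 change 1.85, SE 0.307, edgeR adjusted p = 0.00228). Fdps was at 6.56, 8.70 and 12.2 CPM in VWAT_SD and at 39.4, 31.3 and 21.9 CPM in VWAT_HFD. Again the lowest HFD library, replicate 3, lay above the highest SD library, also replicate 3. Fdps rose 3.37-fold (log2 change 1.75, SE 0.299, edgeR adjusted p = 0.00262).

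At the steps committed to sterols, Fdft1 was at 6.97, 10.7 and 15.3 CPM in VWAT_SD and at 30.8, 24.8 and 19.7 CPM in VWAT_HFD. The groups did not overlap, and the SD libraries spanned more than the gap between the groups. Fdft1 rose 2.28-fold (log2 change 1.19, SE 0.341, edgeR adjusted p = 0.0329). Single libraries decided this call: without replicate 1 or 2 of VWAT_SD the adjusted p was 0.112 or 0.0943, and without replicate 1 or 2 of VWAT_HFD it was 0.111 or 0.101. Sqle was at 13.6, 17.2 and 23.7 CPM in VWAT_SD and at 64.6, 55.2 and 44.4 CPM in VWAT_HFD. The lowest HFD library lay well above the highest SD library. Sqle rose 3.01-fold and had the lowest p of the 7 (log2 change 1.59, SE 0.249, edgeR adjusted p = 0.0017).

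**Figure D1:**
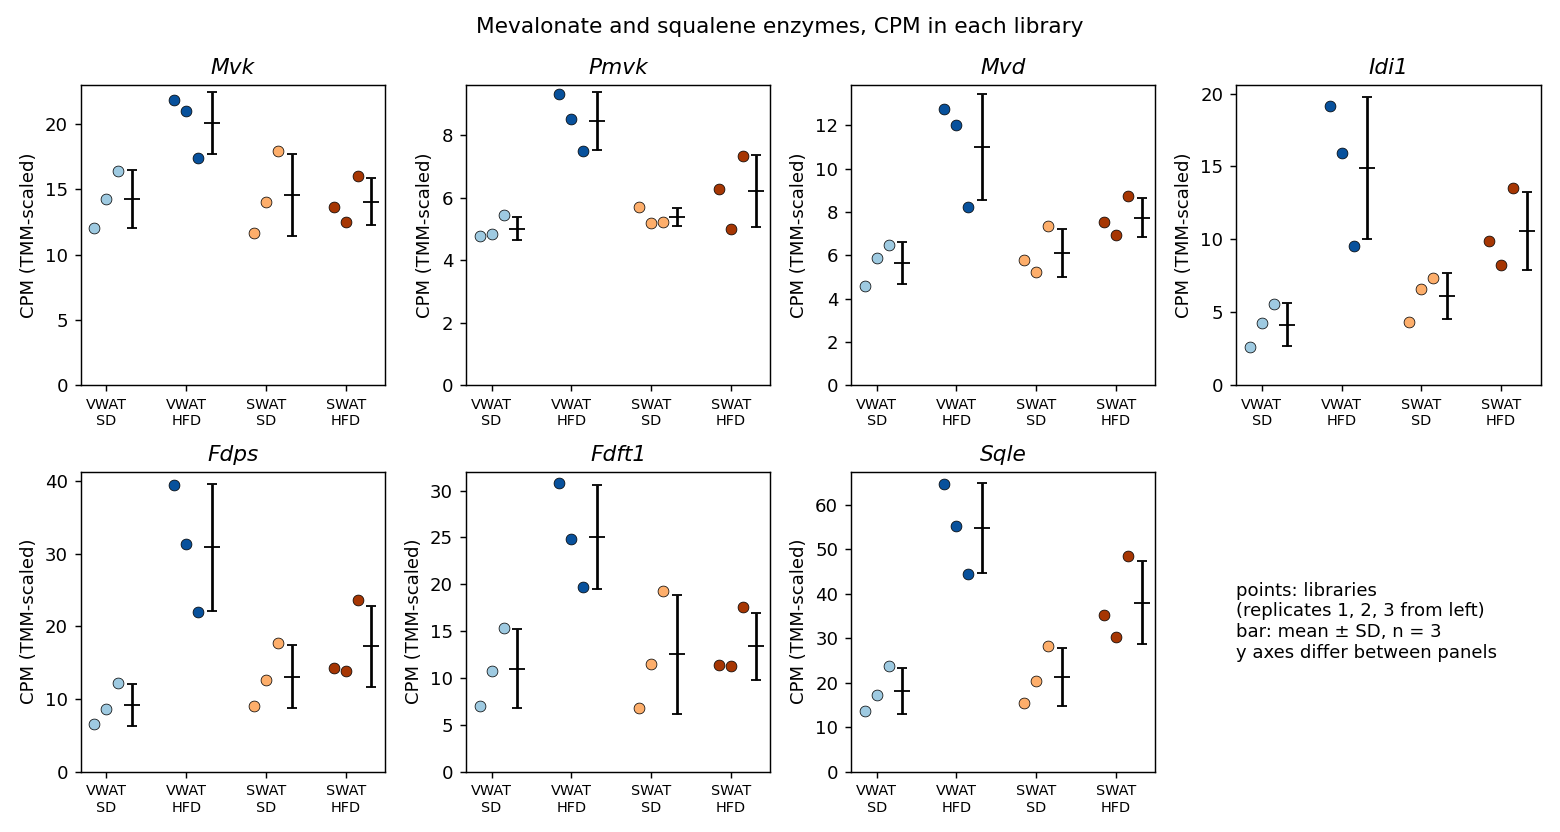
TMM-scaled CPM of the 7 enzymes (y axis, from 0, scale differs by panel) in each of the 12 libraries, grouped by depot and diet on the x axis, with the mean and SD of 3 libraries beside the points. In VWAT the HFD points lie above the SD points in all 7 panels, and in SWAT they do so only for Idi1 and Sqle.

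In subcutaneous precursors the same diet gave smaller differences, and none of the 7 enzymes passed (edgeR, adjusted p 0.132 to 0.956), against 0.967% of all genes that rose. At an unadjusted p under 0.05 there were 2, Idi1 and Sqle, against 14.9% of all genes. DESeq2 called 1, Sqle (adjusted p = 0.0304), and limma voom 0. The median log2 difference of the 7 was 0.36, against -0.0015 over all genes, and 6 of the 7 were positive. Without SWAT_HFD replicate 2, the library with the most leukocyte marker counts of its group, edgeR called 0 of all genes, so that its 0 calls among the 7 say nothing of them, and the median was 0.43.

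Sqle was at 15.4, 20.4 and 28.3 CPM in SWAT_SD replicates 1 to 3 and at 35.2, 30.3 and 48.5 CPM in SWAT_HFD. The HFD libraries were all above the SD libraries, though the nearest pair lay close. The log2 difference was 0.85 with a 95% interval of 0.31 to 1.39, a 1.80-fold difference (adjusted p = 0.132). Idi1 was at 4.30, 6.60 and 7.33 CPM in SWAT_SD and at 9.90, 8.26 and 13.5 CPM in SWAT_HFD, also without overlap. Its log2 difference was 0.83 (95% interval 0.16 to 1.497, adjusted p = 0.237).

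Without overlap, 11.6% of all genes were higher on HFD in SWAT. For the other 5 enzymes the SWAT groups overlapped. Fdps was at 8.99, 12.6 and 17.6 CPM in SWAT_SD and at 14.2, 13.9 and 23.6 CPM in SWAT_HFD, a log2 difference of 0.44 (95% interval -0.21 to 1.09). Mvd was at 5.78, 5.22 and 7.33 CPM in SWAT_SD and at 7.56, 6.93 and 8.72 CPM in SWAT_HFD, a log2 difference of 0.36 (95% interval -0.06 to 0.78). Replicate 3 was the highest library of its group for Fdps and Mvd on both diets.

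Pmvk differed by 0.21 (95% interval -0.11 to 0.53), from 5.70, 5.20 and 5.22 CPM in SWAT_SD to 6.29, 5.01 and 7.32 CPM in SWAT_HFD. Fdft1 differed by 0.15 (95% interval -0.61 to 0.91), from 6.75, 11.5 and 19.2 CPM to 11.4, 11.2 and 17.5 CPM. Mvk differed by -0.03 (95% interval -0.39 to 0.33), from 11.7, 14.1 and 18.0 CPM to 13.6, 12.5 and 16.1 CPM. The interval of Mvk ends at a 1.25-fold increase, whereas that of Fdft1 reaches a 1.87-fold increase. The signs of Mvk and Fdft1 were not stable in SWAT. Mvk was positive with limma voom (0.03) and without SWAT_SD replicate 3 (0.13) or SWAT_HFD replicate 2 (0.04), and Fdft1 was negative with library size as the only scaling (-0.02) and without SWAT_SD replicate 1 (-0.18) or SWAT_HFD replicate 3 (-0.11).

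**Figure D2:**
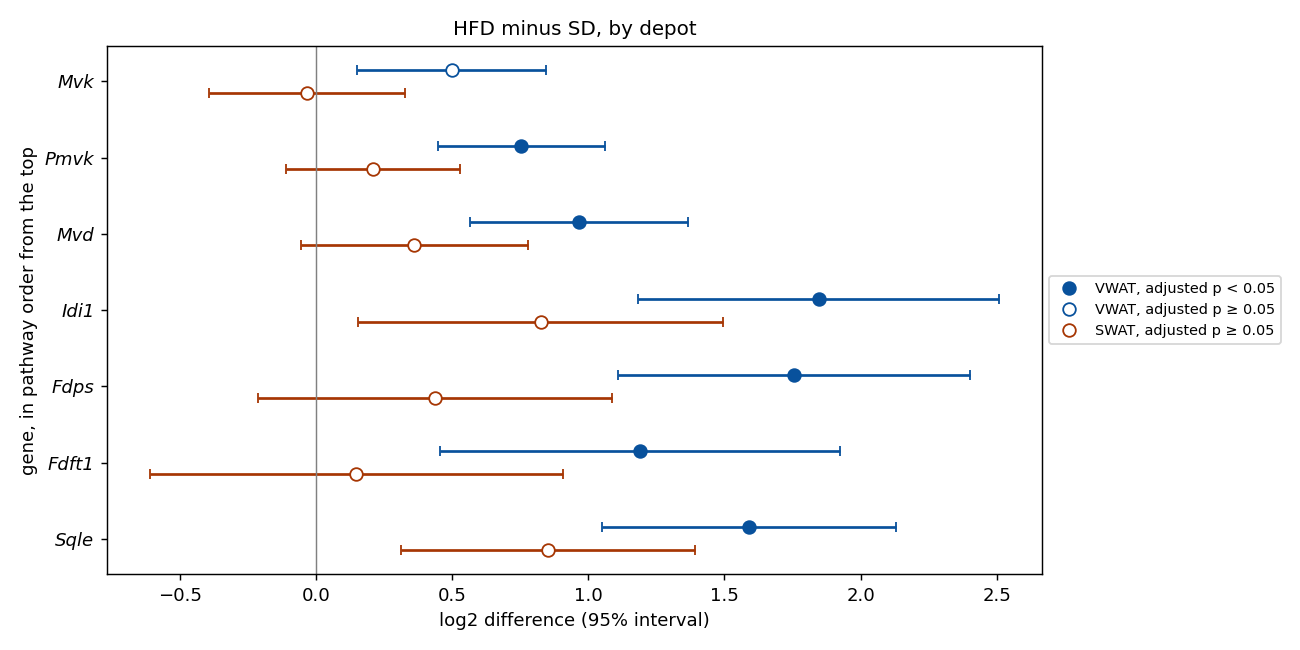
The log2 difference HFD minus SD with its 95% interval (x axis) for the 7 enzymes in pathway order (y axis), in VWAT and SWAT, with filled points for an adjusted p under 0.05. The VWAT estimates run from 0.50 at Mvk to 1.85 at Idi1, and each lies to the right of the SWAT estimate of the same gene, whose interval includes 0 for all but Idi1 and Sqle.

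Whether the diet difference was itself larger in VWAT was tested as an interaction, which uses the same 12 libraries as the 2 diet comparisons and is not independent of them. None of the 7 passed (edgeR, adjusted p 0.508 to 0.707), and neither did any of the 14266 genes (0%). All 7 estimates were positive, with a median of 0.74 on the log2 scale, and 5 had an unadjusted p under 0.05, as had 1026 of all genes (7.19%). The largest was Fdps, whose fold in VWAT was 2.49 times its fold in SWAT (log2 1.32, 95% interval 0.41 to 2.23, not adjusted for the number of genes). The smallest was Mvk, at 1.45 times (log2 0.53, 95% interval 0.03 to 1.03). DESeq2 called 35 genes and none of these 7, and without VWAT_HFD replicate 3 edgeR called 135 genes and again none of the 7. A difference in diet response between depots was therefore not shown for any of the enzymes at this depth and number of pools.

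On SD the 7 enzymes lay slightly towards SWAT, and whether any passed depended on how replicate numbers were treated. With the libraries as independent samples none passed (edgeR, adjusted p 0.248 to 0.945), against 25.7% of all genes, none had an unadjusted p under 0.05 (35.8% of all genes), and DESeq2 and limma voom also called 0. The libraries of the depots overlapped for all 7 genes. The estimates were from -0.54 at Idi1 to -0.02 at Mvk, all towards SWAT, but Mvk, Pmvk, Mvd and Fdft1 turned positive with library size as the only scaling (0.20, 0.12, 0.12 and 0.06), which moved the median of all genes from 0.02 to 0.24. Against that median all 4 were lower. The sign of Mvk also turned with limma voom (0.02). The 95% interval of Idi1 was -1.21 to 0.14 and that of Mvk -0.37 to 0.33.

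The VWAT_SD and SWAT_SD libraries of the same number deviated together from their group means over all genes (r = 0.177, 0.178 and 0.398 for numbers 1, 2 and 3). VWAT_SD and SWAT_SD libraries of different numbers had r of -0.298 to 0.157, the highest for VWAT_SD replicate 2 with SWAT_SD replicate 1. The first 2 same-numbered values were thus little above a different-numbered one, and the labels do not say what a number stands for. Within the same-numbered pairs the mean log2 CPM of the 7 enzymes was lower in VWAT each time, by 0.26, 0.20 and 0.25. Idi1, Fdps and Sqle were lower in VWAT in 3 of 3 pairs, Pmvk, Mvd and Fdft1 in 2 and Mvk in 1. The replicate number was then used as a block in a fit of the 6 SD libraries, chosen after seeing the data. In it, Idi1, Fdps and Sqle were lower in VWAT, against 23.6% of all genes that were lower. In either direction that fit called 6662 of 14091 genes. An unadjusted p under 0.05 was reached by 3 of the 7 enzymes and by 53.8% of all genes. The log2 differences were -0.58 for Idi1 (SE 0.105, edgeR adjusted p = 0.00105), -0.51 for Fdps (SE 0.071, adjusted p = 0.000182) and -0.22 for Sqle (SE 0.0579, adjusted p = 0.00887). The 3 calls held without each pair in turn. With library size as the only scaling of the paired fit, Sqle no longer passed (-0.0066, adjusted p = 0.926), while Idi1 (-0.36, adjusted p = 0.0111) and Fdps (-0.29, adjusted p = 0.00484) did. Mvk then passed in the other direction, higher in VWAT (0.20, edgeR adjusted p = 0.0251). In that fit the median of all genes was 0.24, and 9186 genes were called. The same block fitted over all 12 libraries called 0 of the 7.

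On HFD all 7 estimates lay towards VWAT, from 0.44 at Pmvk to 0.89 at Fdft1, and 2 passed, Mvk and Pmvk, against 13.4% of all genes that were higher in VWAT. Mvk was 1.42-fold higher, with 17.4 to 21.9 CPM in VWAT_HFD and 12.5 to 16.1 CPM in SWAT_HFD (log2 difference 0.51, SE 0.164, edgeR adjusted p = 0.0347). Pmvk was 1.36-fold higher, with 7.49 to 9.33 CPM against 5.01 to 7.32 CPM (log2 difference 0.44, SE 0.144, edgeR adjusted p = 0.037). Neither gene's groups overlapped, nor did those of Fdft1, which did not pass (19.7 to 30.8 CPM against 11.2 to 17.5 CPM, adjusted p = 0.0742). Without overlap, 17.7% of all genes were higher in VWAT_HFD. The largest diet folds were not the depot calls: Idi1 was at 9.55 to 19.1 CPM in VWAT_HFD and 8.26 to 13.5 CPM in SWAT_HFD (adjusted p = 0.269), and Sqle at 44.4 to 64.6 CPM and 30.3 to 48.5 CPM (adjusted p = 0.141), both with overlap.

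The 2 depot calls rested on single libraries. Both were lost without VWAT_HFD replicate 1 (adjusted p = 0.104 for Mvk and 0.125 for Pmvk), VWAT_HFD replicate 2 (0.0981 and 0.0871), SWAT_HFD replicate 1 (0.101 and 0.0824) or SWAT_HFD replicate 2 (0.149 and 0.177). Pmvk was also lost without VWAT_SD replicate 2 (0.0509) or SWAT_SD replicate 2 (0.05) and with only the 6 HFD libraries fitted (0.111). Without VWAT_HFD replicate 3, 5 of the 7 passed. With library size as the only scaling all 7 passed, but that scaling moved the median of all genes from 0.02 to 0.30.

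**Figure D3:**
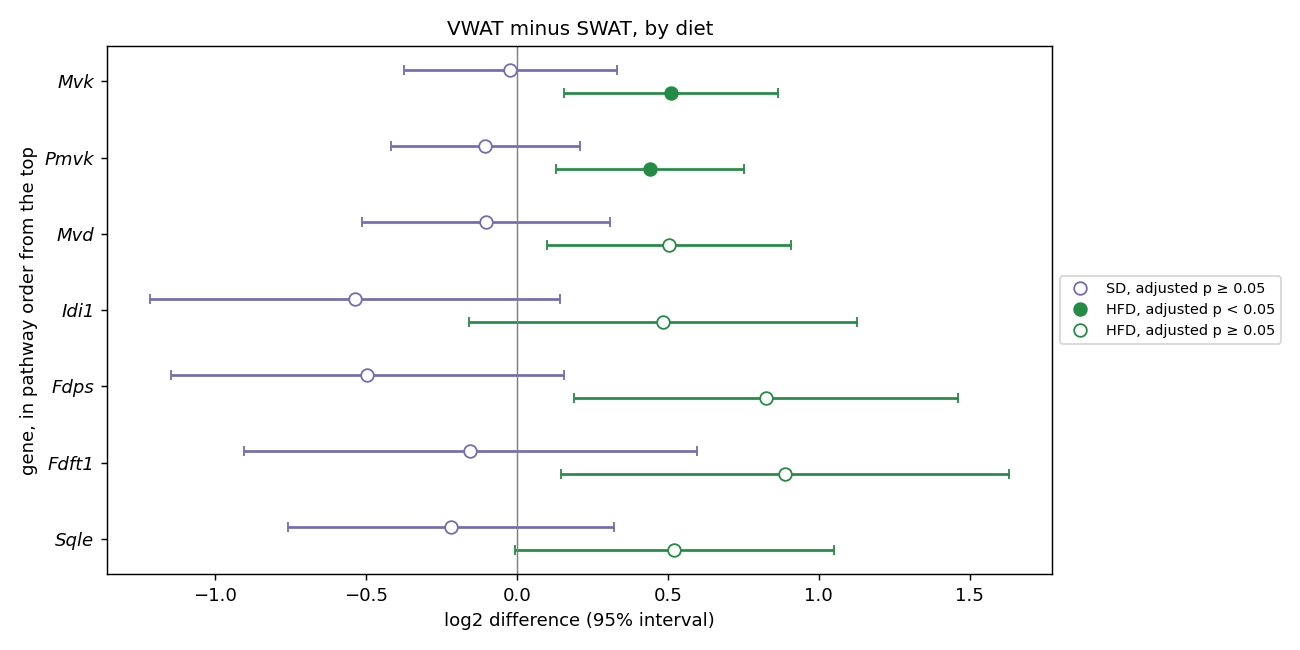
The log2 difference VWAT minus SWAT with its 95% interval (x axis) for the 7 enzymes in pathway order (y axis), on SD and on HFD, with filled points for an adjusted p under 0.05. On SD, with no pairing, all 7 intervals include 0, and on HFD the estimates lie between 0.44 and 0.89, with Mvk and Pmvk filled.

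The share of each enzyme in the summed CPM of the 7 is given as a description, with no test. Sqle made up 26.9% ± 0.883 in VWAT_SD (SD, n = 3) and 33.3% ± 1.04 in VWAT_HFD. In SWAT its share was 26.9% ± 0.616 on SD and 35.4% ± 0.826 on HFD. The share of Mvk was 21.5% ± 2.12 in VWAT_SD and 12.4% ± 1.25 in VWAT_HFD, and 18.7% ± 1.26 in SWAT_SD and 13.3% ± 1.25 in SWAT_HFD. The share of Idi1 was 6.04% ± 0.768 and 8.84% ± 1.24 in VWAT and 7.73% ± 0.873 and 9.81% ± 0.382 in SWAT, on SD and HFD. For Sqle, Mvk and Idi1 the SD and HFD libraries did not overlap in either depot. For Fdps, Mvd and Pmvk they overlapped in SWAT only, and for Fdft1 in both depots (15.98% and 15.19% in VWAT).

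Levels of different genes were compared per kilobase of annotated exon (all exons of GENCODE M21 joined, build GRCm38, while the reads were counted on mm9, so that rarely used exons make a level too low). On SD, Mvk had the highest level in both depots, 5.33 ± 0.827 CPM per kb in VWAT and 5.45 ± 1.19 in SWAT (SD, n = 3), and Sqle the next, 3.28 ± 0.928 and 3.85 ± 1.17. Mvk and Sqle did not overlap in VWAT_SD (4.50 to 6.15 against 2.45 to 4.28 CPM per kb) but did in SWAT_SD. Below them, Mvd, Pmvk, Fdft1 and Fdps lay between 2.18 and 3.04 CPM per kb in VWAT_SD, with overlapping ranges. Idi1 had the lowest level in all 4 groups, 1.18 ± 0.420 CPM per kb in VWAT_SD and 4.24 ± 1.39 in VWAT_HFD. On HFD, Sqle stood first in both depots, with 9.87 ± 1.83 CPM per kb in VWAT and 6.85 ± 1.69 in SWAT, ahead of Mvk at 7.52 ± 0.878 and 5.26 ± 0.680. The ranges of Sqle and Mvk overlapped on HFD in both depots.

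The enzymes also moved together from library to library within a group, Pmvk the least. With group means removed, Pmvk had r of 0.38 to 0.64 with the others, which had 0.77 to 0.99 among themselves. How other genes compare in this was not examined. All 7 were below their group's mean log2 CPM in VWAT_SD replicate 1, VWAT_HFD replicate 3 and SWAT_HFD replicate 2. All 7 were above it in VWAT_SD replicate 3, in VWAT_HFD replicates 1 and 2 and in SWAT_HFD replicate 3. The mean distance was -0.37 and 0.35 in VWAT_SD replicates 1 and 3, -0.34 in VWAT_HFD replicate 3, and -0.24 and 0.33 in SWAT_HFD replicates 2 and 3. In SWAT_SD, 6 of 7 were below in replicate 1 and 6 of 7 above in replicate 3, with Pmvk the exception in both. As a result the summed level of the 7 spanned 51.1 to 85.2 CPM in VWAT_SD and 129 to 198 CPM in VWAT_HFD, and 58.6 to 103 CPM in SWAT_SD and 88.1 to 135 CPM in SWAT_HFD. The VWAT groups were apart in this sum and the SWAT groups overlapped.

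Cell division genes moved with diet as well. All 15 mitosis genes of a fixed list rose in VWAT and 13 in SWAT, against 8.64% and 0.967% of all genes. The median log2 changes of the 15 were 3.19 and 2.73. Mki67, a marker of cycling cells, was at 5.59 to 10.4 CPM in VWAT_SD and 32.4 to 114 CPM in VWAT_HFD, and at 3.25 to 5.002 CPM in SWAT_SD and 26.0 to 36.4 CPM in SWAT_HFD. VWAT_HFD replicate 3 had the lowest mean of the VWAT_HFD libraries for the mitosis genes (2.68 log2 CPM against 4.07 and 4.72) and for the 7 enzymes (3.94 against 4.55 and 4.35). VWAT_HFD replicates 1 and 2 were in opposite order for the mitosis genes and the enzymes. SWAT_HFD replicate 2 had the highest mitosis mean of its group (3.01) and the lowest enzyme mean (3.44). VWAT_SD replicate 3 had the lowest mitosis mean of its group (0.66) and the highest enzyme mean (3.40). In SWAT_SD both means rose from replicate 1 to replicate 3. The part of cell division in the enzyme levels was not tested.

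**Figure D4:**
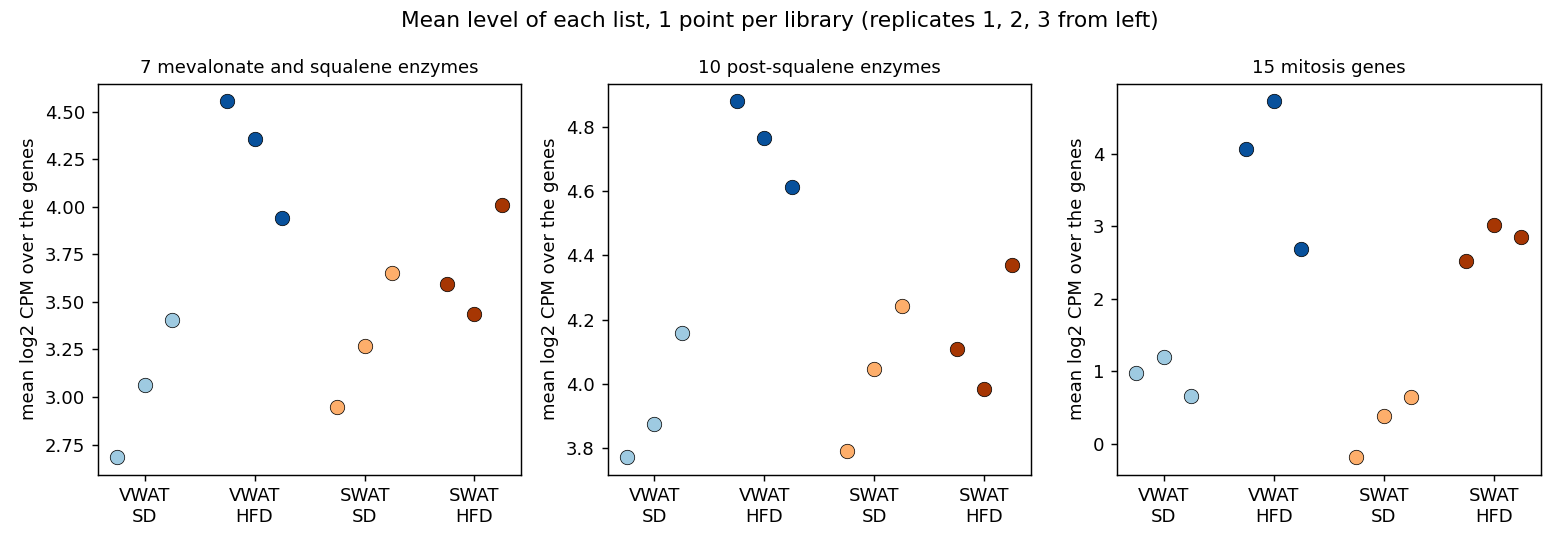
Mean log2 CPM (y axis, scale differs by panel) of the 7 enzymes, of 10 post-squalene enzymes and of 15 mitosis genes in each of the 12 libraries, grouped by depot and diet on the x axis. The mitosis means of SD and HFD libraries are apart in both depots, whereas the enzyme means are apart in VWAT and overlap in SWAT.

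The enzymes that follow squalene epoxide moved in the same direction in VWAT, with smaller median differences. Of 10, 8 rose and none fell, against 8.64% of all genes that rose and 6.98% that fell. The median log2 change was 0.59, and the remaining pair, Lss (0.29) and Ebp (0.17), did not pass. The sterol demethylases Cyp51 and Sc4mol rose from 27.0 ± 8.37 to 104 ± 38.7 CPM (log2 change 1.94, edgeR adjusted p = 0.00175) and from 21.2 ± 7.75 to 67.2 ± 17.9 CPM (1.66, adjusted p = 0.00213). Hsd17b7, a sterol ketone reductase, rose from 21.8 ± 1.29 to 31.8 ± 3.62 CPM (0.55, edgeR adjusted p = 0.00397). In SWAT none of the 10 passed (edgeR), 4 had an unadjusted p under 0.05 against 14.9% of all genes, and the median was 0.09. Of these 4, Cyp51, Sc4mol and Hsd17b7 were higher on HFD and Tm7sf2 was lower (log2 difference -0.44). On HFD, 6 of the 10 were higher in VWAT than in SWAT and none was lower, against 13.4% of all genes that were higher.

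The genes that feed the pathway or draw from it were read as 2 lists. Of 7 genes around acetyl-CoA supply and use, none rose and 1 fell in VWAT (edgeR), against 8.64% and 6.98% of all genes. Acat2, a cytosolic thiolase that condenses acetyl-CoA, was at 7.27 ± 0.399 and 8.16 ± 1.17 CPM (log2 difference 0.17, adjusted p = 0.354). Acat1, its mitochondrial counterpart, and Acly, which makes cytosolic acetyl-CoA from citrate, had log2 differences of 0.28 and 0.13 (adjusted p = 0.144 and 0.452).

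Of 13 genes that use farnesyl diphosphate or isopentenyl units outside sterol synthesis, none rose and 1 fell in VWAT, the tRNA isopentenyltransferase Trit1, from 7.30 ± 0.306 to 5.28 ± 0.433 CPM (log2 change -0.47, edgeR adjusted p = 0.0146). Ggps1, which makes geranylgeranyl diphosphate from farnesyl diphosphate, was at 31.4 ± 2.27 and 30.6 ± 2.53 CPM (-0.04, SE 0.0874, adjusted p = 0.794). Dhdds, of dolichol synthesis, and Rabggta and Rabggtb, subunits of the Rab prenyltransferase, had log2 differences of -0.15, -0.19 and 0.32, none of which passed (adjusted p = 0.244, 0.219 and 0.0908). The medians of the 2 lists in VWAT were 0.03 and -0.04, near that of all genes (-0.02). In SWAT none of these 20 genes passed (edgeR), against 0.967% of all genes that rose and 0.147% that fell. An unadjusted p under 0.05 was reached by 2, both of the prenyl list, against 14.9% of all genes.

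Among 17 genes of sterol sensing, uptake and export, 5 rose and 1 fell in VWAT, against 8.64% and 6.98% of all genes. The sterol carrier Stard4 rose (log2 change 1.54, edgeR adjusted p = 0.000793), as did the sterol sensor Insig1 (1.25, adjusted p = 0.00162). Srebf2, the gene of SREBP2, rose from 145 ± 12.2 to 194 ± 11.8 CPM (0.42, SE 0.114, edgeR adjusted p = 0.0263). Nr1h2, which encodes the oxysterol receptor LXR beta, was the gene that fell (-0.35, edgeR adjusted p = 0.0106). Srebf1 was at 87.0 ± 7.16 and 98.8 ± 7.64 CPM (0.18, adjusted p = 0.203), and Scap, the SREBP escort protein, at 39.6 ± 1.89 and 35.9 ± 2.13 CPM (-0.14, adjusted p = 0.223). In SWAT none of the 17 passed (edgeR), and 5 had an unadjusted p under 0.05 against 14.9% of all genes. Stard4, Insig1 and Nr1h2 differed in SWAT by 0.60, 0.56 and -0.22, in the direction seen in VWAT and without overlap. Srebf2, Srebf1 and Scap differed by -0.05, -0.04 and -0.04.

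The genes most like the 7 enzymes were sought over the 12 libraries as those whose log2 CPM had the highest Pearson correlation with the mean of the 7 standardised profiles, among 9381 genes with a mean of at least 5 CPM. Among the first 10 were Sc5d (r = 0.975), Cyp51 (0.951), Fkbp1a (0.950), Stard4 (0.949), Actr1b (0.935), Eif5a (0.923), Cdk4 (0.921), Lgals1 (0.920) and Rdh11 (0.920). Of these, Sc5d and Cyp51 are post-squalene enzymes and Stard4 is a sterol carrier, while the other 6 were in none of the fixed lists. The points share their libraries, scaling and 4 groups, so the correlations carry no test.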

How the data were processed

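Poly(A) RNA was made into dUTP strand-marked libraries and read as 75 bp single ends, per the labels' protocols. Per the submitters' processing notes, the authors used TopHat and HTSeq on mm9, with versions and the strand setting of the counting not given in the sources used here. Overlapping or antisense genes are therefore uncertain, Fdps among them. The deposited values are unnormalised read counts per gene. The 3 entries that name no gene were left out: reads outside genes (3.53 to 5.57% of a library), ambiguous reads (1.71 to 1.95%) and reads not uniquely aligned (15.0 to 20.8%), so genes with near-identical copies may be undercounted. Every column was mapped to a sample by its title. No pair of replicates agreed within sampling noise.

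Genes were filtered with filterByExpr by group (14266 kept, 132 removed) and fitted with edgeR 4.0.16 (R 4.3.3, TMM, robust quasi-likelihood F test) in 1 fit of 4 groups, which share the spread (prior degrees of freedom 5.01). A gene "rose" or "fell" at a Benjamini-Hochberg adjusted p under 0.05 over all genes tested. SE is the log2 difference over the root of F, and 95% intervals use the fit's degrees of freedom. CPM are TMM-scaled, as mean ± SD. Log2 CPM have a prior count of 2. The fit was tested on simulated data.

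The members, lists and tests were chosen with earlier results of these data known. Named genes included the 7 enzymes, up to 4 genes with the lowest adjusted p in VWAT of each list, and a fixed set (Srebf2, Srebf1, Scap, Insig1, Acat2, Ggps1, Mki67). Nr1h2, Lss, Ebp, Tm7sf2 and Mmab were named after values were seen. Some genes that met the rule are not reported here. Same-numbered libraries of different groups correlated at -0.155 to 0.398 in their deviations from group means, above 0.1 in 6 of 18 pairs. Different-numbered libraries of different groups correlated at -0.298 to 0.157. Numbers were therefore not taken as pairs, with 1 exception. All 3 same-numbered pairs of VWAT_SD and SWAT_SD were above 0.1 (0.177 to 0.398), and a block fit of these 6 libraries was added. Alternatives were DESeq2 1.42.0, limma 3.58.1 voom, other scalings and filters, a replicate block and leaving out each library.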

Additional observations from a re-analysis of the deposited data

How the results depend on the processing

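The count of the 7 enzymes that rose in VWAT was 6, and 5 to 7 when each library was left out in turn; DESeq2 size factors, DESeq2's test, limma voom and the replicate block gave 7. Pmvk, Mvd, Idi1, Fdps and Sqle kept their VWAT calls in all 20 alternatives. In SWAT the count was 0 (0 to 0 without single libraries) and 1 with DESeq2's test. For the interaction it was 0 throughout. Over all genes the calls were also 0, except with DESeq2's test (35), with the replicate block (1) and without VWAT_HFD replicate 3 (135). In the other alternatives the 0 among the 7 therefore says nothing of them. For depot on SD the count of the 7 was 0, except for 3 (lower in VWAT) with the replicate block fitted to the 6 SD libraries. That fit was added after seeing the data and called 6662 of all genes, against 3669. With library size as its only scaling, it called Idi1 and Fdps lower and Mvk higher in VWAT. For depot on HFD the count was 2, and 0 to 5 without single libraries, 7 with library size as the only scaling, 4 with DESeq2's test and 4 with the replicate block. Outside the SD depot comparison, same-numbered libraries correlated at -0.155 to 0.184 in their deviations from group means and were not taken as pairs. The replicate block was fitted as an additive term over all 12 libraries. It gave 7 enzymes for diet in VWAT, 4 for depot on HFD and 0 for diet in SWAT, the interaction and depot on SD.

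Signs turned only for differences that were small and did not pass in the main fit of all libraries. Of these genes, Sqle passed in the block fit of the SD libraries, lower in VWAT (-0.22, edgeR adjusted p = 0.00887). With library size as the only scaling of that block fit, Mvk turned from -0.019 to 0.20 and passed (edgeR adjusted p = 0.0251). In SWAT, Fdft1 was -0.021 with library size as the only scaling and -0.18 to 0.57 without single libraries (below 0 without SWAT_SD replicate 1 or SWAT_HFD replicate 3). Mvk was 0.027 with limma voom and -0.18 to 0.13 without single libraries (above 0 without SWAT_SD replicate 3 or SWAT_HFD replicate 2). Between depots on SD, library size as the only scaling gave Mvk 0.20, Pmvk 0.12, Mvd 0.12 and Fdft1 0.062, and limma voom gave Mvk 0.019. Without single libraries, Mvk was -0.18 to 0.15, Mvd -0.21 to 0.036, Fdft1 -0.49 to 0.27 and Sqle -0.46 to 0.025, with values above 0 without SWAT_SD replicate 3 (all 4 genes) or VWAT_SD replicate 1 (Mvk, Mvd and Fdft1). The cause was not tested.

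Over all genes, the VWAT calls numbered 2228, and 4266 without VWAT_HFD replicate 3 and 757 without VWAT_HFD replicate 2. In SWAT they numbered 159, 536 with DESeq2, 12 with limma voom and 0 without SWAT_SD replicate 1, 2 or 3 or SWAT_HFD replicate 2. Library size as the only scaling moved the split of higher and lower genes on HFD between depots from 1918 and 1912 to 5830 and 1124, on SD from 1880 and 1789 to 4279 and 1118, for diet in VWAT from 1232 and 996 to 799 and 1822, and for diet in SWAT from 138 and 21 to 101 and 162. With 3 pools a group and 94 to 527 counts per enzyme in SWAT_HFD replicate 1, small differences may not have been detectable.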
